A study of Mus musculus with 2 samples.

Results

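The cells described here are erythroid progenitors, picked out of 2 libraries in which the RNA of single haematopoietic stem cells (HSCs) from mouse marrow was counted. They were selected on raw counts of UMIs, the molecular tags that each stand for 1 captured transcript. A cell needed at least 8 UMIs over Klf1, Car1, Ermap, Rhd and Epor, and under 5 UMIs over the megakaryocyte genes Pf4, Itga2b, Cavin2 and Gp9. The gate held 73 of the 11214 cells that had at least 2500 UMIs, at least 500 genes and at most 10% mitochondrial UMIs. There were 30 of 6375 cells in the naive library and 43 of 4839 in the Listeria library. Because measured values chose the members, every contrast of these cells with others is given as a description and carries no test.

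The naive library came from untreated wild-type C57BL/6J mice. The Listeria library came from wild-type C57BL/6J mice challenged with the bacterium Listeria monocytogenes 6 weeks earlier, and mice of both groups are listed as 6 to 8 weeks old, without saying whether at challenge or at sampling. Red cells had been lysed with ammonium chloride. The labels call the cells HSCs without naming a sorting gate, and they do not say whether marrow was pooled over mice. The deposited name of the Listeria library carries a knockout tag, while its labels say wild type. Each group has 1 library, so no difference between the libraries has a replicate check, and all 95% intervals cover counting error only.

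Red cells are made from progenitors shared with megakaryocytes. In the erythroid branch Gata2 gives way to Gata1, the transcription factor Klf1 switches on haem, globin and membrane genes, and signalling through the erythropoietin receptor Epor keeps the cells alive. The carbonic anhydrase Car1 is an early mark of the branch. Alas2, the erythroid form of the first haem enzyme, and the alpha globin Hba-a1 come later, as the cells fill with haemoglobin and lose their organelles.

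The promoters of several genes that set these cells apart hold a GATA match, and 4 of them are shown for that reason, with the beta globin Hbb-bs for its CACCC match. Sequences are from RefSeq on GRCm38.p6, 5′ to 3′ on the gene's strand, each a stretch of 100 bases that ends shortly before the annotated start. Capitals mark a match on either strand to the GATA motif, spelled AGATAA or with T for its first letter, or to the CACCC motif, CCACACCC. The genes were chosen after the matches were seen.
Klf1 (chr8:84901852-84901951, plus strand): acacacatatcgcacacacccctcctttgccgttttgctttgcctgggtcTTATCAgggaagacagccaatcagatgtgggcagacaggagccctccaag
Alas2 (chrX:150547287-150547386, plus strand): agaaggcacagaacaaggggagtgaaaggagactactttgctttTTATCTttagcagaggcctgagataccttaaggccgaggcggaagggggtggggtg
Ermap (chr4:119190026-119190125, minus strand): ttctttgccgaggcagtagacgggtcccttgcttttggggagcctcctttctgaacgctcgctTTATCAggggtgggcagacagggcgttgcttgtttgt
Cpox (chr16:58670078-58670177, plus strand): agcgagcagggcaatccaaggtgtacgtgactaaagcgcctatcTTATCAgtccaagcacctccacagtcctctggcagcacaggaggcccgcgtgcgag
Hbb-bs (chr7:103827959-103828058, minus strand): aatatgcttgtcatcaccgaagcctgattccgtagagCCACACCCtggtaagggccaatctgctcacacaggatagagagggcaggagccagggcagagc

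The GATA matches of Klf1, Alas2, Ermap and Cpox all lay on the opposite strand, beginning 80, 86, 67 and 86 bases upstream of the start. In Hbb-bs the CACCC match lay 93 bases upstream and a GATA match, outside the stretch shown, 210 bases upstream. These matches are common. A GATA match was found in 21.0% of 27025 promoters of the same length and in 151 of 1328 promoters of the genes compared with megakaryocyte-gated cells. It was found in 9 of the 50 promoters of genes higher in erythroid-gated cells and in 18 of the 100 of genes lower in them, 18% of each. A CACCC match was found in 4.09% of all promoters, in 2 of those 50 and in 0 of those 100. A match is a description of the letters and not evidence of binding.

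The gate is set on 2 sums of UMIs, and the following counts describe it. The mirrored megakaryocyte gate (at least 8 UMIs of Pf4, Itga2b, Cavin2 and Gp9, under 5 of the erythroid genes) held 200 naive and 253 Listeria cells. Only 1 cell, in the naive library, had at least 8 erythroid gate UMIs together with 5 or more megakaryocyte gate UMIs; it had 18 and 5. Of the erythroid-gated cells, 22 of 30 naive and 29 of 43 Listeria cells had no megakaryocyte gate UMI at all, and the highest had 3. At the lower edge, 7 naive and 10 Listeria cells with 5 to 7 erythroid gate UMIs stood just outside, and 4 and 5 cells with 8 to 11 stood just inside. Car1 was at 923 CPM (UMIs of the gene per 1000000 UMIs) and 591 CPM in the former and at 749 and 943 CPM in the latter, in the naive and Listeria libraries.

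**Figure D1:**
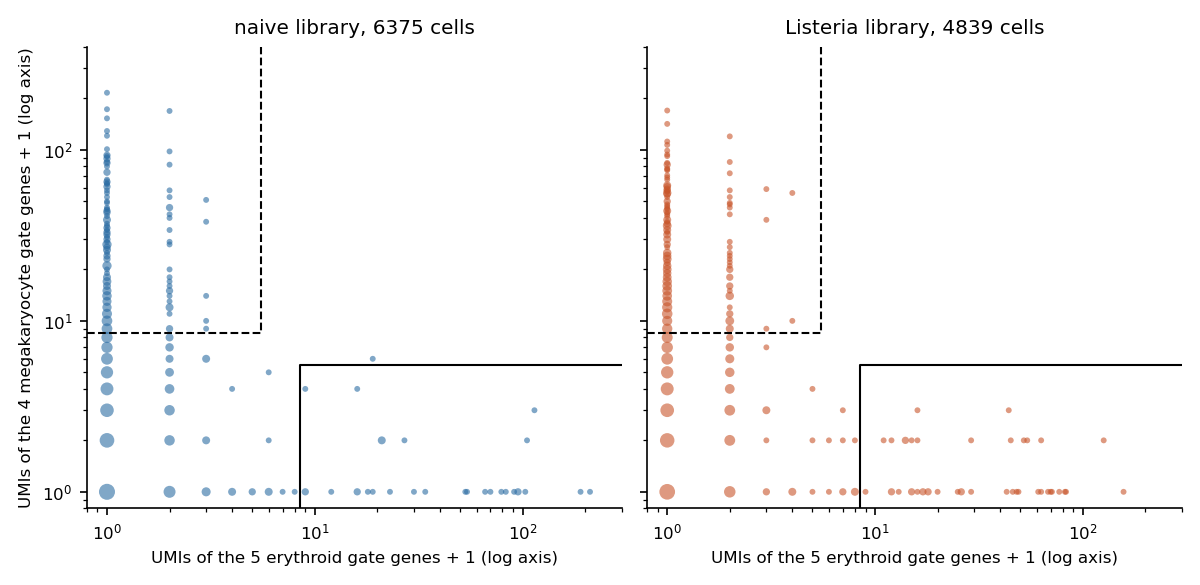
UMIs of the 4 megakaryocyte gate genes against UMIs of the 5 erythroid gate genes in every kept cell, with 1 added and both axes logarithmic; a larger point stands for more cells at 1 position. The solid lines bound the erythroid gate (30 naive and 43 Listeria cells) and the dashed lines the megakaryocyte gate (200 and 253 cells); 1 naive cell lies above the erythroid gate.

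The gate works on raw UMIs, and 29 of 30 naive and 37 of 43 Listeria gated cells lay above their library's median depth. Naive and Listeria erythroid-gated cells had medians of 16460 and 11483 UMIs, against 11079 and 11214 in megakaryocyte-gated cells and 6972 and 7239 in all cells. Car1 alone gave 74.8% and 77.1% of the gate UMIs. A count of 14 barcodes was kept in both libraries, none of them an erythroid-gated cell. In erythroid-gated cells, B-lineage genes summed to 444 CPM (naive) and 27.7 CPM (Listeria). In the naive library 2 gated cells had at least 10 B-lineage UMIs, with 78 and 93.

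Among the gate genes Car1 dominated. It had a lowest, median and highest of 0, 24 and 180 UMIs per naive cell and 0, 19 and 141 per Listeria cell. Klf1, the master regulator of red cell genes, had 0, 3 and 9 UMIs and 0, 1 and 8 UMIs, with none in 10 naive and 16 Listeria cells. Ermap, a red cell adhesion protein of the butyrophilin kind, had 0, 5 and 35 UMIs and 0, 2 and 19 UMIs. Rhd, which carries the Rhesus blood group in the red cell membrane, had a median of 0 in both libraries and reached 26 and 41 UMIs. Epor reached 5 and 6 UMIs and had at least 1 in 16 of 30 and 11 of 43 cells. The libraries overlapped over nearly the whole range of each gene.

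Markers of red cell precursors that the gate did not use were present in most gated cells. Aqp1, the water channel of the red cell, had a UMI in 29 of 30 naive and 41 of 43 Listeria cells. It had one in 4.45% of naive and 6.07% of Listeria B-gated cells, which should lack it. Gata1 had a UMI in 23 of 30 and 22 of 43 cells, against 0.417% and 0.243% of B-gated cells. Neither gene is particular to the erythroid gate. Megakaryocyte-gated cells of the naive and Listeria libraries had Aqp1 in 57.5% and 72.7% and Gata1 in 27% and 24.5%. In the naive library 2 erythroid-gated cells were B-gated too. The B-gated cells had medians of 9307 and 9893 UMIs, so the erythroid-gated cells were the deeper. Genes of eosinophils were at 0 in both libraries, and so were the mast cell receptor genes Ms4a2 and Fcer1a. The whole list of mast cell and basophil genes summed to 89.2 and 101 CPM. Genes of neutrophil granules summed to 57.7 and 38.1 CPM, those of macrophages to 17.5 and 29.5 CPM, and those of HSCs to 310 and 251 CPM. In the remaining cells of the 2 libraries the HSC genes summed to 942 and 988 CPM.

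By Gata2 and Alas2 the 73 cells fell into 3 stages and left the fourth empty. Gata2 without Alas2 marked 40 cells, 18 naive and 22 Listeria. Neither gene was seen in 25 cells, 9 and 16. Alas2 without Gata2 marked 8 cells, 3 and 5. No cell had a UMI of both, which allows a share of cells with UMIs of both of up to 4.11% (3 counts of 73). Gata2, at its highest, reached 9 UMIs in a cell, so a cell listed without it may hold transcripts that were not captured.

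Among the gated cells Car1 was present through the first stages and low in the last. Car1 is a gate gene, and 40 of the 65 cells without Alas2 passed only through it. The gate thus favoured its presence in the first stages. In cells with Gata2 it ran from 5 to 180 UMIs, with a median of 18.8 per 10000 UMIs of the cell. In cells with neither gene the median was 17.2 per 10000, and 1 Listeria cell had none. In the 8 cells with Alas2 the median was 4.80 per 10000. These 8 cells had 0, 5 and 5 Car1 UMIs in the naive library and 0, 0, 1, 16 and 20 in the Listeria library. Their groups overlap with the earlier cells.

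Hba-a1 was nearly confined to the 8 Alas2 cells among those gated. It stood at 77, 494 and 998 UMIs in the 3 naive cells and at 269, 340, 349, 377 and 1168 UMIs in the 5 Listeria cells. In the other 65 cells the highest was 42 UMIs, and 60 of them had none. Per 10000 UMIs the Alas2 cells ran from 102 to 1124, and the libraries overlapped. The same 8 cells all had Slc4a1, the anion exchanger band 3, at 5 to 34 UMIs. Slc4a1 had no UMI in any of the other 65 cells. These late cells were small in RNA, with a median of 1688 genes against 3297 in the cells with Gata2.

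The gate did not hold every haemoglobin-rich cell. Outside it, 4 naive cells and 1 Listeria cell had at least 50 Hba-a1 UMIs. The naive 4 had 623 to 1208 Hba-a1 UMIs and the Listeria cell had 945, all with 10 to 24 Alas2 UMIs and 0 UMIs of the 5 gate genes. They held 8146 to 16548 UMIs in the naive library, with 0 to 111 B-lineage UMIs. Counted with them, cells with at least 50 Hba-a1 UMIs were 7 naive and 6 Listeria cells, so the 3 and 5 gated ones do not stand for all late cells of the libraries.

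A further split, chosen after the data were seen, parted the 65 cells without Alas2 by how they passed the gate. In 25 cells the other 4 gate genes reached 8 UMIs without Car1, and in 40 cells the gate was reached only through Car1. The 2 classes differed in depth, with medians of 24381 and 10715 UMIs. Klf1 had a UMI in 24 of 25 cells past the gate without Car1 and in 15 of 40 cells that passed through Car1. Klf1 is among the other 4 gate genes, so the split itself favoured its presence in the cells past the gate without Car1. Those cells were also the deeper, and the counts are of raw UMIs, so they do not measure a separate difference in Klf1. Gata2 had a UMI in 13 of 25 and 27 of 40. Its level was 48.0 CPM in the former and 167 CPM in the latter.

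**Figure D2:**
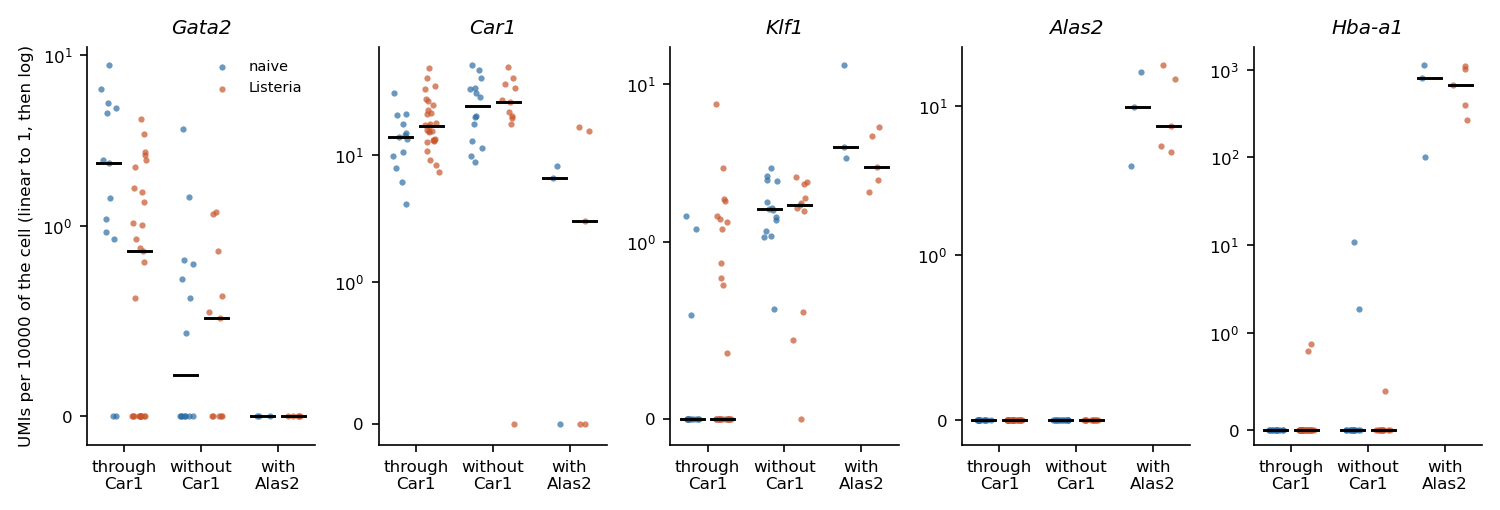
Gata2, Car1, Klf1, Alas2 and Hba-a1 in each of the 73 erythroid-gated cells, as UMIs per 10000 UMIs of the cell (linear up to 1, then logarithmic), in cells past the gate only through Car1 (13 naive, 27 Listeria), past it without Car1 (14, 11) and with Alas2 (3, 5). Black bars are medians; Gata2 is at 0 and Hba-a1 at 102 to 1124 in every cell with Alas2.

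Erythroid-gated and megakaryocyte-gated cells were compared in CPM over summed UMIs, within each library, to describe how the 2 branches differ. Of 1662 genes with at least 100 CPM, 63 (3.79%) were over 2-fold higher in erythroid-gated cells in both libraries and 124 (7.46%) over 2-fold lower. The lists below use a minimum of 50 CPM, at which 4.42% of 3328 genes were higher and 7.81% lower, with a median log2 ratio of -0.03. The gate genes are left out of all counts, and every gene of gated cells counts as used by the gate.

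Among the transcription factors, Gata1, Klf3 and Myb were higher in erythroid-gated cells and Gata2, Klf13 and Cited2 lower. These were 3 and 3 of the 17 measured of 22. Gata1, the main erythroid factor, stood at 71.7 CPM in naive and 79.7 CPM in Listeria erythroid-gated cells and at 28.2 and 29.8 CPM in megakaryocyte-gated cells. Its log2 ratios were 1.35 (95% interval 0.75 to 1.93) and 1.42 (0.87 to 1.95). Gata1 reached the minimum of 50 CPM in erythroid-gated cells alone, which fixed its direction. Klf3, a repressor that Klf1 switches on, had log2 ratios of 2.20 and 2.08. Myb, which keeps progenitors dividing, was at 469 and 513 CPM against 218 and 158 CPM. Gata2, of the stem and early progenitor stage, was lower, with log2 ratios of -1.25 (-1.65 to -0.87) and -1.52 (-1.99 to -1.09). Gfi1b, a repressor needed in both branches, gave 1.23 and 0.54 and so did not pass in both libraries. Its interval in the Listeria library, -0.10 to 1.13, includes no difference.

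Of the 9 enzymes of haem synthesis, the 5 that reached the minimum were higher, with a median log2 ratio of 2.35; they reached it through the erythroid-gated cells alone, which fixes their direction. Cpox, which acts in mitochondria late in the pathway, stood at 292 and 198 CPM in erythroid-gated against 28.2 and 28.8 CPM in megakaryocyte-gated cells. Its log2 ratios were 3.37 (2.96 to 3.80) and 2.78 (2.36 to 3.20). Fech, which inserts iron, gave 2.21 and 2.49. Alad, the second step, gave 2.36 and 2.23, and Urod, which trims the ring, 1.16 and 1.70. Uros and Ppox stayed under the minimum, with 2.62 and 3.05 for Uros and 1.93 and 1.89 for Ppox. Alas2 had 42.0 and 71.1 CPM in erythroid-gated cells and 0 UMIs in the 453 megakaryocyte-gated cells. Against a floor of 3 counts over the group its log2 ratio was at least 5.08 and at least 6.16. Alas1, the form that other tissues use, gave -0.41 (-1.71 to 0.69) and -0.51 (-1.89 to 0.64).

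Globins gave the highest ratios, and these rest on few cells. Hbb-bs was at 5985 and 8814 CPM in erythroid-gated cells and at 2.49 and 4.97 CPM in megakaryocyte-gated cells. Only 6 naive and 8 Listeria gated cells had a UMI of it, and 1 cell gave 68.5% of its UMIs in the naive library and 53.5% in the Listeria library. The alpha globin Hba-a1 was at 2831 and 4344 CPM against 1.66 and 0.99 CPM, Hba-a2 at 1373 and 2071 CPM against 0 and 1.33 CPM, and Hbb-bt at 1365 and 2631 CPM against 3.31 and 0.66 CPM. The embryonic globins Hbb-bh1, Hbb-y and Hba-x had no UMI in any erythroid-gated cell. B-gated cells, which should lack globins, held Hbb-bs at 331 CPM in the naive library and at 5.43 CPM in the Listeria library. In the naive library 1 of these cells held 2862 Hbb-bs UMIs, and without it the level was 135 CPM.

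Of the genes of iron and haem handling, 5 of 11 measured of 21 were higher and 0 lower, with a median log2 ratio of 0.59. Tfrc, the transferrin receptor, gave 3.16 (2.71 to 3.61) and 2.87 (2.41 to 3.34). Blvrb, a reductase of biliverdin and flavins, was at 609 and 624 CPM against 60.1 and 54.4 CPM and had a UMI in 28 of 30 and 42 of 43 cells. Glrx5, which builds iron-sulfur clusters, gave 1.86 and 1.08. The iron store genes Fth1 and Ftl1 did not pass: Fth1 gave 0.58 and 0.59.

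Genes of the red cell membrane and skeleton were higher in 9 of 12 measured of 23, with a median log2 ratio of 5.77. Only 3 genes of this list reached 50 CPM in megakaryocyte-gated cells of either library, so the minimum fixed the direction of the rest. Aqp1 gave 2.45 (2.19 to 2.72) and 1.98 (1.74 to 2.20), and megakaryocyte-gated cells held it at 89.5 and 122 CPM. Atp1b2, a sodium pump subunit, was at 91.0 and 126 CPM against 0.41 and 0.33 CPM. The spectrin-binding proteins Ank1 and Add2 had no UMI in megakaryocyte-gated cells. Their log2 ratios were at least 6.08 and 5.95 in the naive and at least 6.16 and 5.71 in the Listeria library. Epb41 and Cd47, which other blood cells use too, lay between -0.34 and 0.16.

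Signalling genes and antioxidants gave the following counts. Of the erythropoietin and Kit signalling genes 0 of 4 measured of 14 passed in either direction, and Kit, the stem cell factor receptor, gave 0.25 and 0.10. Socs3, a feedback inhibitor of cytokine receptors, had 1 UMI in each library's erythroid-gated cells and stood at 50.1 and 31.2 CPM in megakaryocyte-gated cells. Of the enzymes and antioxidants 5 of 10 measured of 17 were higher, among them Car2 (1.53 and 1.54) and the peroxidase Prdx2 (1.57 and 1.81). Pyruvate kinase parted by isoform gene: Pkm was lower, at 36.7 and 8.67 CPM against 240 and 224 CPM. Pklr, the red cell and liver gene, was at 47.2 and 24.3 CPM against 0 UMIs, below the minimum of 50 CPM in both libraries.

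Among the genes named by rank outside these lists, the metallothioneins stood high. Mt2 was at 401 and 158 CPM in erythroid-gated cells and at 2.07 and 1.99 CPM in megakaryocyte-gated cells, and Mt1 gave log2 ratios of 3.78 and 3.62. Tspo2, an erythroid relative of the mitochondrial translocator protein, had a UMI in 20 of 30 and 36 of 43 cells and none in megakaryocyte-gated cells. Ctse, a protease, gave 4.99 and 5.45. Spire1, an actin nucleator, gave 4.06 and 3.66, and the carboxylesterase gene Ces2g stood at 210 and 224 CPM against 14.1 and 15.3 CPM.

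Megakaryocyte and platelet genes were lower in 12 of 12 measured of those outside the gate, with a median log2 ratio of -3.75. Only 3 genes of this list reached 50 CPM in erythroid-gated cells of either library, so the minimum fixed the direction of the rest. Plek, a platelet kinase substrate, gave -5.76 and -4.87. Angpt1, a ligand of the receptor Tek, was at 31.5 and 29.5 CPM against 441 and 440 CPM. Tmsb4x, which binds actin monomers, was at 388 and 302 CPM against 3867 and 3359 CPM. Of immediate early genes, which also respond to cell dissociation, 11 of 26 measured were lower, Nr4a1 and Klf4 among them, and 0 were higher; the list's median was -1.06. Of the other genes ranked lowest, Sptbn1, a non-erythroid spectrin, gave -4.35 and -4.01, the tetraspanin Cd9 -3.40 and -4.07, and Tmem176b -3.56 and -4.11. Lysozyme, Lyz2, was at 1.75 and 5.20 CPM against 211 and 135 CPM, beside neutrophil granule genes that summed to 3084 and 150 CPM in megakaryocyte-gated cells. Itih5 had 0 UMIs in erythroid-gated cells and 140 and 120 CPM in megakaryocyte-gated cells.

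The remaining lists are given by their counts. Of early erythroid and shared progenitor genes 7 of 19 measured were higher and 4 lower. S phase genes were higher in 3 of 33 and G2 and M genes in 0 of 31, with 0 lower in each and medians of 0.33 and 0.31. HSC genes were lower in 3 of 4 measured. Cyclins and cell cycle inhibitors were lower in 4 of 11, and nucleolar genes differed in 0 of 11, with a median of 0.64. Type I interferon genes were lower in 1 of 5, interferon gamma targets higher in 1 of 5, and class I and II genes lower in 1 of 9.

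**Figure D3:**
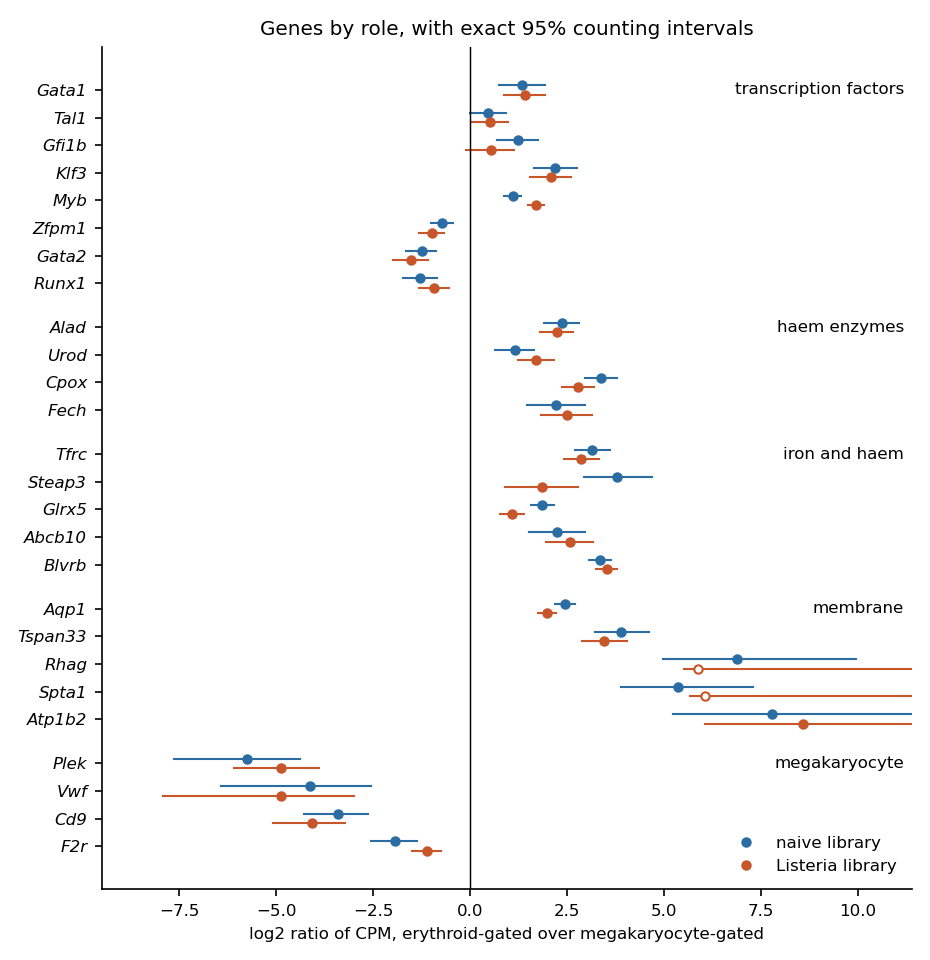
log2 ratio of CPM in erythroid-gated over megakaryocyte-gated cells for genes grouped by role, in the naive (30 and 200 cells) and Listeria (43 and 253 cells) libraries. Lines are exact 95% intervals for counting error, and open points are bounds where megakaryocyte-gated cells had 0 UMIs; Gata2 and Runx1 lie left of 0 and the haem enzymes right of it in both libraries.

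The 8 cells with Alas2 were set against the 40 cells with Gata2, both libraries summed, to describe the later stage. At 50 CPM, 21.7% of 3607 genes were over 2-fold higher and 33.8% over 2-fold lower, with a median log2 ratio of -0.43. A few transcripts take much of these cells' RNA: Hbb-bs alone stood at 133726 CPM and Hba-a1 at 64343 CPM. All other genes are read against totals that include them.

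Of the haem enzymes 8 of 8 measured were higher in Alas2 cells, with a median log2 ratio of 3.35, and of the membrane genes 18 of 19. Alas2 itself is 1 of these 8 enzymes and enters the median. It chose the cells, so its direction was fixed. In any of these lists, a gene that reached 50 CPM in only 1 group of cells could only be higher in that group. Slc25a37, the mitochondrial iron importer, was at 6.25 CPM in the Gata2 cells and 1533 CPM in the Alas2 cells. Slc4a1 and Epb42, which anchors it, had 0 UMIs in the Gata2 cells and 2038 and 442 CPM in the Alas2 cells. The gate gene Klf1 stood at 106 and 474 CPM and Tal1, its partner in erythroid complexes, at 71.9 and 316 CPM. Kit, Myb and Cdk6, which sustain dividing progenitors, had 0 UMIs in the Alas2 cells and 186, 547 and 470 CPM in the Gata2 cells. Mt1, Junb, an immediate early factor, and Mif, a cytokine, also had 0 UMIs in the Alas2 cells, against 639, 550 and 502 CPM. Srgn, a granule proteoglycan, gave -5.46. Nucleolar and ribosome biogenesis genes were lower in 9 of 13 measured and chaperones in 12 of 14. Npm1, a nucleolar protein, gave -3.75 (-4.66 to -2.97). Apoe, which carries lipid, was at 966 CPM in the Gata2 cells and had 1 UMI in the Alas2 cells, giving -5.93 (-11.2 to -3.45).

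Genes of G2 and M phase were higher in 38 of 46 measured and 0 were lower. A member under 50 CPM in the Gata2 cells was measured through the Alas2 cells alone, so it could only be higher. Mki67 had 54, 60 and 91 UMIs in the 3 naive Alas2 cells and 4, 62, 63, 69 and 104 in the 5 Listeria cells. Its median was 4 in the cells with Gata2. To set depth aside, each cell was thinned to 2500 UMIs. The G2 and M list then had a median of 68.5 UMIs in Alas2 cells, 16.0 in cells past the gate without Car1 and 8.0 in those through Car1. Before thinning, medians over all erythroid-gated cells were 126 UMIs in the naive library and 50 in the Listeria library. After it they were 15.5 and 10.0, against 8.0 and 7.0 in megakaryocyte-gated cells and 5.0 in other cells of each library. The S phase list gave 8.5 and 6.0 in erythroid-gated and 6.0 and 6.0 in megakaryocyte-gated cells. At least 2 UMIs of the S phase list were found in 86.7% and 95.3% of thinned erythroid-gated cells (100% and 97.7% unthinned), and of the G2 and M list in 100% of both. Most other cells passed this mark too. Thinned megakaryocyte-gated cells gave 90.5% and 94.5% for S phase and 98.0% and 97.2% for G2 and M. Thinned other cells gave 79.3% and 75.7% for S phase and 94.9% and 94.5% for G2 and M.

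**Figure D4:**
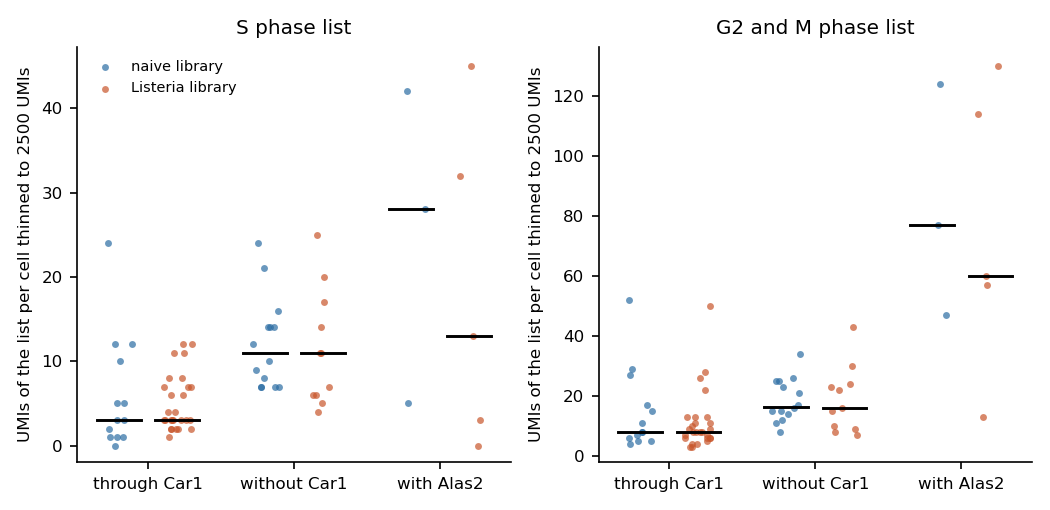
UMIs of the S phase list (left) and of the G2 and M phase list (right) in each erythroid-gated cell after thinning to 2500 UMIs, by the way it passed the gate and by library. Black bars are medians; for G2 and M they are 8 and 8 in cells through Car1, 16.5 and 16 in cells past the gate without Car1, and 77 and 60 in cells with Alas2.

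The 25 cells past the gate without Car1 were set against the 40 that passed only through it, both libraries summed. At 50 CPM, 10.9% of 3497 genes were over 2-fold higher in the former and 8.78% over 2-fold lower. A gene that reached 50 CPM in only 1 class could only be higher in that class. Haem enzymes were higher in 4 of 5 measured and S phase genes in 16 of 34. Cpox, 293 against 58.7 CPM, gave 2.32 (1.73 to 2.96), and Tfrc 2.17 (1.53 to 2.88). Sphk1, which makes sphingosine 1-phosphate, gave 2.67 and the secreted protein gene C1qtnf12 2.89. Cells through Car1 were higher in the intermediate filament Vim, 680 against 43.2 CPM, a log2 ratio of -3.98 (-4.60 to -3.41). They were also higher in Tmsb4x, Ctla2a, Plac8 and the thrombin receptor F2r, at 172 against 20.8 CPM. Megakaryocyte-gated cells hold F2r at 180 and 247 CPM and Ctla2a at 2132 and 2454 CPM. Immediate early genes were lower past the gate without Car1 in 13 of 25 measured and higher in 0. The classes were cut from the gate genes and differ in depth, and the part of depth in these values was not tested.

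The share of erythroid-gated cells was 0.471% (0.318 to 0.671) in the naive and 0.889% (0.644 to 1.20) in the Listeria library, a fold of 1.89 (1.16 to 3.12). B-gated cells made up 22.6% of naive and 8.51% of Listeria kept cells. Among cells that are not B-gated, a base chosen after seeing the data, the erythroid gate held 28 naive and 43 Listeria cells, 0.567% and 0.971%, a fold of 1.71 (1.04 to 2.86). Megakaryocyte-gated cells were 3.14% and 5.23%, a fold of 1.67 (1.38 to 2.02). By class, cells that passed through Car1 were 0.204% and 0.558% of kept cells, a fold of 2.74 (1.36 to 5.78). Cells past the gate without Car1 were 0.220% and 0.227%, a fold of 1.04 (0.425 to 2.45). Cells with Alas2 were 0.0471% and 0.103%, a fold of 2.20 (0.427 to 14.1). With Car1 left out of the gate there were 17 naive and 15 Listeria cells, a fold of 1.16 (0.541 to 2.47). After thinning every cell to 2500 UMIs the gate held 11 and 17 cells, a fold of 2.04 (0.900 to 4.81). The library, the challenge and any difference in sorting cannot be told apart.

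The shares of the stages lay within each other's counting intervals. Alas2 had a UMI in 10.0% (2.11 to 26.5) of naive and 11.6% (3.89 to 25.1) of Listeria erythroid-gated cells. Gata2 had one in 60.0% (40.6 to 77.3) and 51.2% (35.5 to 66.7). In B-gated cells Alas2 was in 0.139% of naive and 0 of 412 Listeria cells, which allows a share of up to 0.728%, and Gata2 in 7.78% and 3.88%. With 30 and 43 cells a difference within these intervals was not detectable.

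Between the libraries, 71 of 1671 genes with at least 100 CPM (4.25%) were over 1.5-fold higher in the erythroid-gated cells of the Listeria library and 90 (5.39%) over 1.5-fold lower. The counting interval excluded no change for 71 and 87 of them. The split between higher and lower turned with scaling: 103 and 63 with edgeR's TMM factors and 102 and 66 with DESeq2's size factors. At 50 CPM, 6.85% of 3371 genes were higher and 9.67% lower. A gene that reached 50 CPM in only 1 library could only be higher in that library.

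The highest-ranked genes of the Listeria library were of 2 kinds. Slc4a1 and Hbb-bt, a beta globin, came from the Alas2 cells, of which the Listeria library had 5 of 43 and the naive 3 of 30. Slc4a1 stood at 57.7 and 166 CPM, a log2 ratio of 1.53 (0.94 to 2.14), and had no UMI outside those cells. Hbb-bt gave 0.95 (0.82 to 1.07) over all gated cells and -4.67 (-10.0 to -2.06) without the Alas2 cells, where 26 naive UMIs stood against 1. Those 26 lay in the naive cells of 37148 and 39138 UMIs, 13 in each, and the latter cell held 93 B-lineage UMIs. The other kind kept its direction inside both gate classes. Dstn, an actin-severing protein, was at 107 and 231 CPM, giving 1.11 (0.66 to 1.57) over all cells and 1.32 and 0.70 past the gate without Car1 and through it. Brd1, a chromatin reader, gave 1.05, 1.07 and 0.70, Tax1bp1 0.85, 0.58 and 0.72, and the class I gene H2-Q6 1.06, 0.60 and 0.87. Xbp1, a factor of the unfolded protein response, gave 1.18, 0.64 and 1.43, and the scaffold gene Iqgap1 0.95, 0.77 and 0.60. F2r gave 1.28, 1.94 and 0.40, with 13 UMIs in all past the gate without Car1 and 79 through it. Crebrf gave 1.30, 0.03 and 1.12. Both genes were higher through Car1, the class of 13 of 30 naive and 27 of 43 Listeria cells. In megakaryocyte-gated cells the same ratios were 0.03 for Dstn, 0.21 for Brd1, 0.08 for Tax1bp1, 0.32 for H2-Q6 and 0.59 for Xbp1. The difference between the 2 kinds of cell was not tested.

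Genes lower in the Listeria library also fell into 2 kinds. Mt2, a metallothionein, was at 401 and 158 CPM, -1.34 (-1.71 to -0.99), and C1qtnf12 at 390 and 182 CPM, -1.10 (-1.45 to -0.76). Both were among the genes higher past the gate without Car1, a class of 14 of 30 naive and 11 of 43 Listeria cells. Inside that class they gave -1.08 and -0.75, and inside cells through Car1 they gave 1.30 and 0.97, the opposite direction. Mesd, Nop10 and Canx also ended above 0 through Car1, at 0.14, 0.19 and 0.04. Cxcl10, a chemokine that interferons induce, was at 163 and 57.2 CPM, -1.51 (-2.13 to -0.92), and had a UMI in 13 naive and 11 Listeria cells. It gave -1.11 through Car1 and -5.12 (-10.4 to -2.58) past the gate without Car1, where 59 naive UMIs stood against 1. Erh, Tmem238 and Rpn2 gave -0.62 to -1.06 in both classes, and the nucleolar Nolc1 -0.82 and -0.24. Erh was also lower in megakaryocyte-gated cells (-0.60) and in other cells (-0.59).

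**Figure D5:**
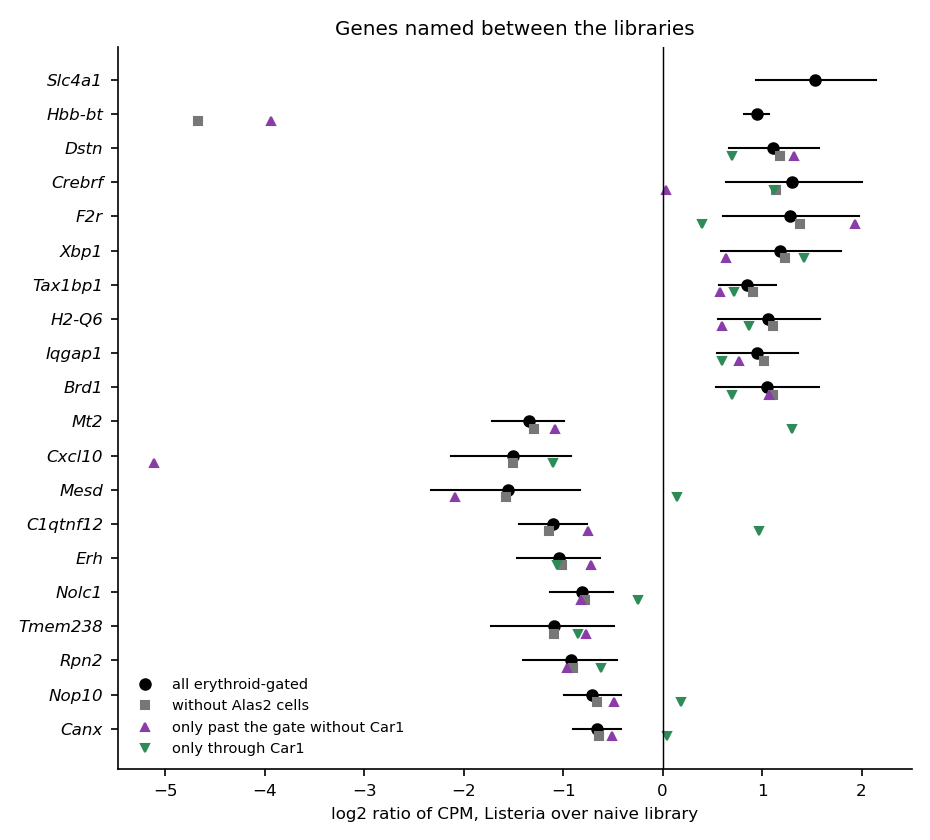
log2 ratio of CPM in the Listeria over the naive library for the 10 highest and 10 lowest ranked genes in erythroid-gated cells, over all 73 cells (black, with exact 95% counting interval), without the 8 Alas2 cells, and inside each gate class. No point is drawn where both libraries had 3 or fewer UMIs; Hbb-bt moves from 0.95 to -4.67 without the Alas2 cells, and Mt2 from -1.34 to 1.30 in cells through Car1.

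By role, the erythroid lists gave other counts with and without the 8 Alas2 cells. Transcription factors were higher in 1 and lower in 2 of 19 measured, haem enzymes higher in 1 of 6, iron genes 1 and 1 of 12, and membrane genes 1 and 2 of 13. Without the Alas2 cells, membrane genes were lower in 5 of 11, iron genes in 3 of 11, early erythroid and shared progenitor genes in 4 of 17 and haem enzymes in 1 of 4, against 340 of 3399 genes in all. Among them only 1 early erythroid gene was higher. In these 65 cells, the class past the gate without Car1 made up 14 of 27 naive and 11 of 38 Listeria cells. Klf1 gave -0.23 (-0.70 to 0.24) and Gata1 0.15 (-0.49 to 0.80). Epor gave -0.46 (-1.26 to 0.33), and Car1 was at 2197 and 2236 CPM, 0.03 (-0.09 to 0.14). Cpox and Tfrc gave -0.56 (-0.92 to -0.21) and -0.45 (-0.85 to -0.07), inside the fold. Without the Alas2 cells they gave -1.12 and -1.20, and in cells through Car1 0.83 and 0.87. Steap3, an iron reductase, gave -1.54 (-2.40 to -0.75). Globins were higher in 3 of 4 measured, and without the Alas2 cells lower in 2 of 2. Those 2 passed the minimum through the naive cells alone, which fixed their direction. Outside the Alas2 cells, the naive cells of 37148 and 39138 UMIs held 7 and 42 of the 49 naive Hba-a1 UMIs. They held 2 and 31 of the 34 naive Hbb-bs UMIs, and the latter cell had 93 B-lineage UMIs.

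Cell cycle lists were lower in the Listeria library: 8 of 33 measured S phase genes and 8 of 35 G2 and M genes, with 0 higher in each. Their medians were -0.38 and -0.29, against -0.05 over all genes at 50 CPM, of which 9.67% were lower. Other cells had 4 of 23 and 9 of 25 lower and 0 higher, against 3.73% of all genes, with medians of -0.40 and -0.47. Megakaryocyte-gated cells had 0 of 27 (1 higher) and 4 of 33 lower, against 1.79% of all genes, with medians of 0.12 and -0.05. Thinned cells gave naive and Listeria medians of 11 and 11 UMIs of the S list past the gate without Car1, 3 and 3 through Car1, and 28 and 13 in the 3 and 5 cells with Alas2. For the G2 and M list these were 16.5 and 16, 8 and 8, and 77 and 60. For interferon genes, type I targets were higher in 2 of 7 measured and lower in 0. Interferon gamma targets were higher in 1 and lower in 1 of 6. B-lineage genes were lower in 4 of 4 measured, with a median of -3.45. The whole list summed to 27.7 CPM in the Listeria cells. These 4 thus passed the 50 CPM minimum through the naive library alone, which fixed their direction. In naive erythroid-gated cells 2 cells held 171 of the 254 B-lineage UMIs, and without them the list summed to 161 CPM. Free RNA was put at 1.69% of UMIs in naive and 0.428% in Listeria erythroid-gated cells, and its part in other genes was not tested beyond the subtraction given with the alternatives.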

How the data were processed

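Cell Ranger 3.0.2 and genome build mm10 are named in the submitters' processing notes; per the labels the libraries are 10x Genomics 3′ v2. The deposited matrices hold raw UMI counts for 31053 genes (64619150 UMIs naive, 43895966 Listeria), with no replicate library. Barcodes with at least 2500 UMIs, at least 500 genes and at most 10% mitochondrial UMIs were kept. The gates were applied to raw UMIs; B-gated cells, a background, needed at least 8 B-lineage UMIs. No doublet caller was run: the cell with at least 8 erythroid and 5 or more megakaryocyte gate UMIs fell in neither gate, and the highest 5% of cells by UMIs, or cells with B-lineage UMIs, were dropped as alternatives. UMIs were summed per gate and library and divided by the sum to give CPM. Ratios carry exact binomial 95% intervals, shares Clopper-Pearson intervals, and 0 cells a limit of 3 counts; all cover counting error only. A gene was tested where 1 of the groups compared reached 100 CPM (in both libraries for the gates; 50 CPM for lists) and called where the ratio passed 2-fold (in both libraries for the gates; over both libraries summed for stages and gate classes) or 1.5-fold (libraries). Named genes are, ranked by the interval bound nearest no change, the 12 highest and 12 lowest between gates, 10 and 10 between libraries and 8 and 8 between stages or gate classes (mitochondrial, ribosomal, Gm, Rik and sex-linked genes left out), with the stage genes, markers, haem enzymes and up to 6 members of other lists. The members and the 28 lists (505 genes, 4 without a row) were chosen with earlier results of these data known; the split by Car1 was chosen after seeing the data. Free RNA was estimated from barcodes of 1 to 50 UMIs. Scripts (tested on simulated data) used Python 3.11.15, numpy 2.4.6, scipy 1.17.1, pandas 2.3.3, matplotlib 3.10.9, R 4.3.3, edgeR 4.0.16 and DESeq2 1.42.0, the last 2 only for scaling factors. Promoters and their motifs come from RefSeq on GRCm38.p6. A few genes that the rule would name are not reported here.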

Additional observations from a re-analysis of the deposited data

Results flagged for a closer look

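A few genes moved in opposite directions between the libraries in 2 kinds of cell, each past 1.5-fold; none of these differences was tested, since each group has 1 library. Gfi1b, a repressor of early erythroid cells, gave a log2 ratio of Listeria over naive of -0.7213 in erythroid-gated cells and 0.6942 in other cells. The globins Hba-a1, Hba-a2 and Hbb-bt gave 0.6177, 0.5928 and 0.9472 in erythroid-gated cells and -1.605, -1.3542 and -1.0141 in other cells, among which 4 naive cells and 1 Listeria cell held at least 50 Hba-a1 UMIs. Plac8 gave 0.7407 in erythroid-gated cells and -1.5458 in megakaryocyte-gated cells, beside neutrophil granule genes at 3084 and 150 CPM in the naive and Listeria megakaryocyte-gated cells. Past the gate without Car1, a class of 14 of 30 naive and 11 of 43 Listeria cells, Gfi1b was higher than through Car1 (log2 ratio 2.54) and Plac8 lower (-2.69). Inside the 2 classes the ratio of Listeria over naive was -0.55 and 0.44 for Gfi1b, the latter a bound from 0 naive UMIs, and 2.62 and -0.35 for Plac8.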

How the results depend on the processing

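Of 86 values under the alternatives chosen at the start, 67 stayed within the limits set (1.5 times for a count of genes, the counting interval for a share) and 19 did not; of 18 under alternatives added after seeing the data, 14 and 4. With Car1 left out of the gate the shares of erythroid-gated cells were 0.267% and 0.310%, the Alas2 share of the Listeria library was 26.7%, 130 genes were higher and 200 lower than in megakaryocyte-gated cells, and 116 were higher in the Listeria library. After thinning to 2500 UMIs the shares were 0.173% and 0.351%. A minimum of 50 CPM gave 147 and 260 genes between gates and 231 and 326 between libraries, and a minimum of 10 UMIs 351, 1026, 931 and 1247; both test more genes. Without the 5% of cells with most UMIs the naive share was 0.231%, with 209 genes higher and 207 lower in the Listeria library. Among cells past the gate without Car1 124 were higher and 136 lower, and through Car1 190 and 209 (both added later). The cause was not tested. No paired analysis was possible because each group has 1 library, which also leaves none to leave out. With 30 and 43 cells, a gene near 100 CPM rests on few UMIs, and shares and ratios are wide.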
